A study of Mus musculus with 4 samples.

Results

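The genes described here encode the initiation and elongation factors of protein synthesis. They were chosen by symbol, as all rows whose names begin with Eif1 to Eif6, Eef1 or Eef2, with a row in all 4 count tables and without Eif2s3x, Eif2s3y and Eif1ax. Of 65 matching symbols, 61 met this rule, out of 31735 gene rows shared by the 4 tables. The libraries hold ribosome-bound RNA from the rostral pons of adult control mice, without treatment, of the line Cbln2-TRAP NIDA172, in which Cbln2 drives ribosomal protein L10a tagged with EGFP (Cbln2-EGFP/Rpl10a). In translating ribosome affinity purification (TRAP), tagged polysomes are captured with antibodies against EGFP and the RNA on them is sequenced. All 4 libraries are immunopurified RNA of 1 group, titled replicates 1 to 4, and whether they came from separate animals or pools is not given in the labels, so a p-value here reflects only how far these libraries scatter, and that scatter may be technical. The comparisons are therefore between related genes within a library and between libraries. In such bulk samples, fewer cells of a type and less RNA per cell cannot be told apart.

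Translation starts when initiation factors bring the small ribosomal subunit, the initiator tRNA and a message together. The factor eIF2 delivers the initiator tRNA, eIF3 holds the small subunit ready, and eIF4F, made of the cap-binding protein eIF4E, the helicase eIF4A and the scaffold eIF4G, recruits capped messages. The elongation factor eEF1A then carries each aminoacyl-tRNA to the ribosome, and eEF2 moves the ribosome along the message. Neurons are known for the eEF1A isoform encoded by Eef1a2, which takes over from Eef1a1 in mature neurons and muscle, and they use the kinases of eIF2 and of eEF2 to adjust protein synthesis at synapses. Several of these genes belong to the terminal oligopyrimidine (TOP) class, whose messages begin with a cytosine followed by a run of pyrimidines and which are translated under the control of the kinase mTOR.

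Windows of 30 bases around the annotated transcription start, 15 on each side, are shown for the TOP-class members that had a promoter entry, for Eef1a2 as the relative of Eef1a1, and for the members that differed between libraries (RefSeq, GRCm38.p6, on the strand of the gene). Capitals mark any C followed by at least 5 further C or T bases, searched on the strand of the gene only.
Eef1a1 (chr9:78481710-78481739, minus): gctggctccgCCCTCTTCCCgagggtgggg
Eef1a2 (chr2:181157001-181157030, minus): tCTCTCCTggtctgcgttctcgctcactgg
Eef1b2 (chr1:63176816-63176845, plus): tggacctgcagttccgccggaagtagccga
Eef2 (chr10:81176616-81176645, plus): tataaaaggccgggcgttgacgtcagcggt
Eif3f (chr7:108934400-108934429, plus): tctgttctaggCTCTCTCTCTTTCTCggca
Eif4b (chr15:102073758-102073787, plus): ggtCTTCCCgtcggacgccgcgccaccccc
Eif5b (chr1:37997995-37998024, plus): ggcgcctgggttcccacctggccggcggct
Eif3a (chr19:60790679-60790708, minus): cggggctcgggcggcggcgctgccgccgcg
Of the 9 members listed as TOP messages, 5 had an entry and 3 of these (Eef1a1, Eif3f and Eif4b) held such a run, which in Eef1a1 and Eif3f spanned the annotated start. Among the 47 members with an entry, 11 held a run (23.4%), beside 25.5% of the 27025 genes in the table. A match is a description of these letters, and the start used in these cells was not measured.

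The libraries held 12731825 to 21140265 gene counts. CPM stands for a gene's counts per 1000000 gene counts in the same library, and comparisons between genes are in CPM per kb of annotated exon. The row Rn45s, named for the ribosomal RNA precursor, took 1.61% to 1.68% of the gene counts in replicates 1 and 2 but 24.2% and 9.29% in replicates 3 and 4, which lowers the CPM of every other gene there. All 7 general neuronal markers examined, among them Snap25 and Rbfox3, reached 1 CPM in all 4 libraries, and their summed level was 25057, 22117, 10849 and 11210 CPM in replicates 1 to 4. The 6 astrocyte markers summed to 253 to 1575 CPM and the 6 oligodendrocyte markers to 413 to 2375 CPM, both lowest in replicate 3 and highest in replicate 4, so the RNA is not that of neurons alone. The factor genes were nearly all detected. In all 4 libraries 56 of the 61 members reached 1 CPM (91.8%, beside 33.5% of all shared rows), and 18 had a mean of 100 CPM or more. Together they held 8845, 9469, 7955 and 8694 CPM in replicates 1 to 4. The median member detected throughout stood at 13.2 CPM per kb, beside 6.68 for the 10131 genes with a length that were detected throughout.

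**Figure D1:**
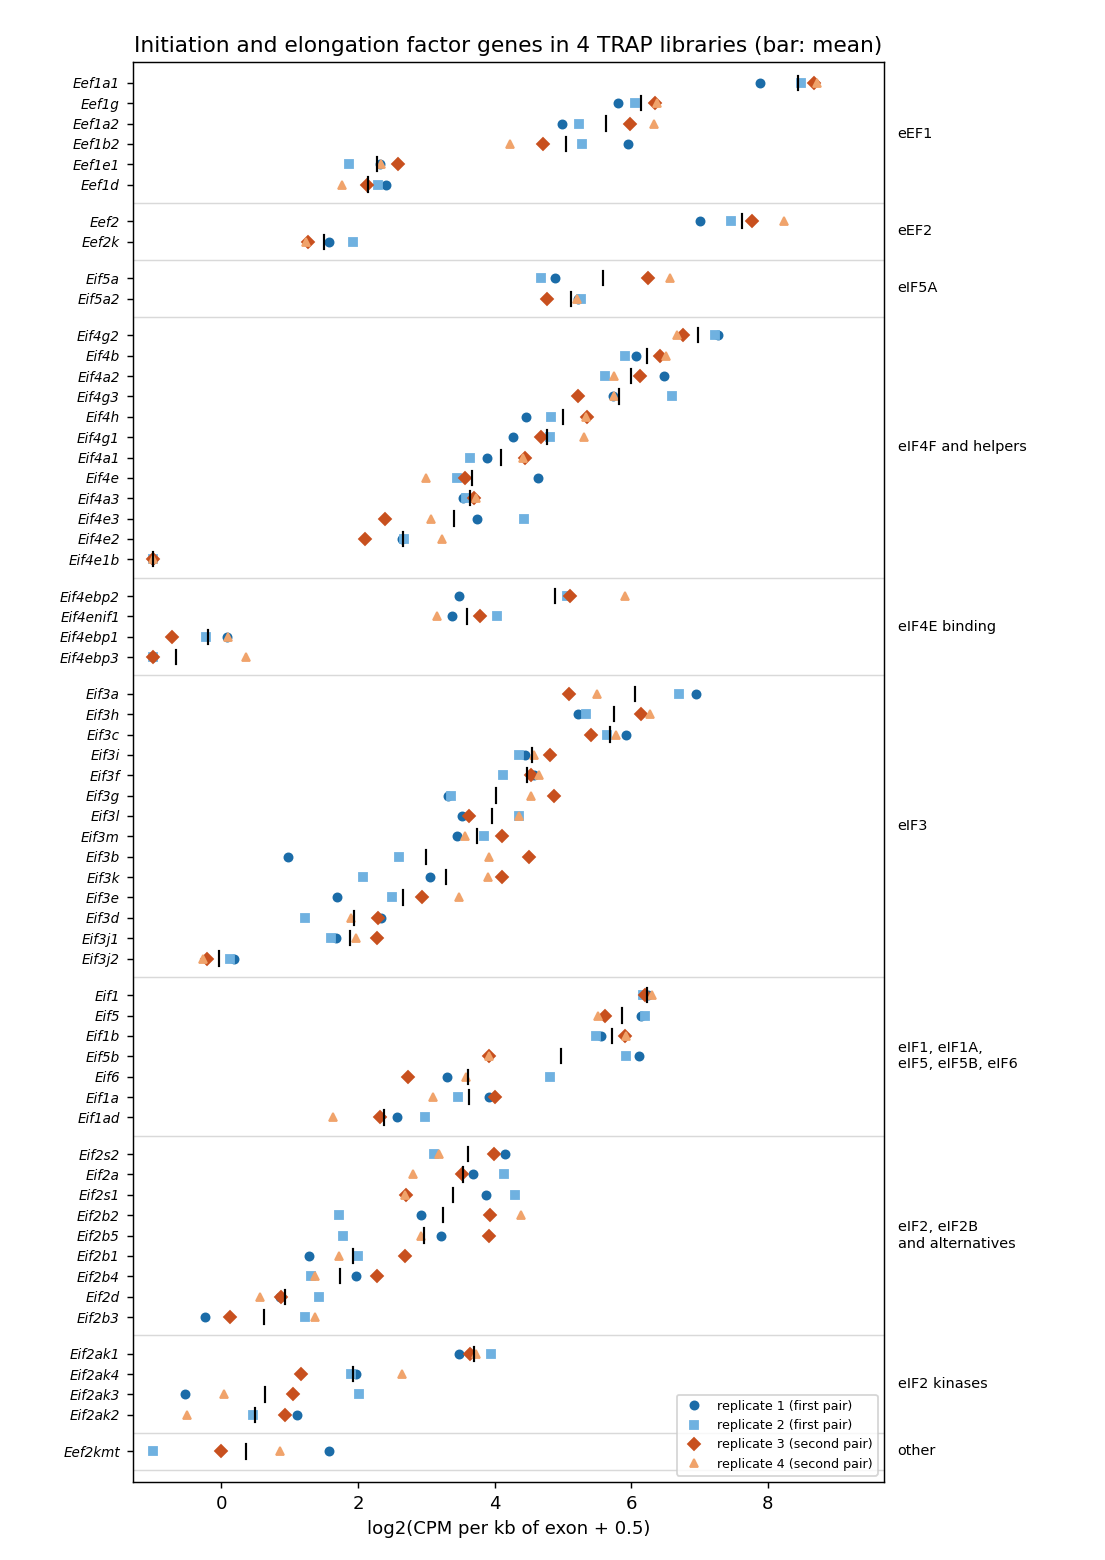
Level of each of the 61 genes in each library, as log2 of CPM per kb of exon plus a pseudocount of 0.5, grouped by the step of translation in which the product works. Points are single libraries and black bars are means of the log2 values; Eef1a1 and Eef2 lie furthest to the right, and Eif4e1b lies at the pseudocount in all 4 libraries.

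The elongation factors headed the order of levels. Eef1a1 (ENSMUSG00000037742.14, chromosome 9, 78478449 to 78489151, minus strand, GRCm38) was at 590, 889, 1017 and 1045 CPM in replicates 1 to 4, or 355 ± 83.6 CPM per kb (SD, n = 4), the highest of the members. Eef2 (ENSMUSG00000034994.10, chromosome 10, 81176631 to 81182498, plus strand), which encodes the translocation factor, was at 424, 582, 722 and 999 CPM, or 205 ± 73.4 CPM per kb. Within each library Eef1a1 exceeded Eef2 in 4 of 4 libraries, by a log2 ratio of 0.83 ± 0.24 (SD), while Eef2 exceeded the next gene in the order, Eif4g2, in 3 of 4 libraries and within its spread (0.63 ± 0.81). Both were lowest in replicate 1, and in both the values of replicates 3 and 4 lay above those of replicates 1 and 2. From Eif3a, in place 4, down to Eif3c, in place 15, no neighbours in the order differed in the same direction in all 4 libraries.

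Eef1a1 exceeded its neuronal paralog Eef1a2 in every library. Eef1a2 (ENSMUSG00000016349.10, chromosome 2, 181147653 to 181157014, minus strand) was at 65, 77.1, 131 and 168 CPM in replicates 1 to 4, or 52.9 ± 23.0 CPM per kb. The log2 ratio of Eef1a1 to Eef1a2 per kb was 2.90, 3.25, 2.69 and 2.37, with a mean of 2.81 ± 0.37 (SD, n = 4), or 6.99-fold. Eef1a2 thus made up 11.6%, 9.39%, 13.3% and 16.1% of the eEF1A RNA per kb, and the shares in replicates 3 and 4 were above those in replicates 1 and 2. The coding sequences of these genes match at 80.7% of 1387 aligned bases and share no run of 50 bases. Eef1a1, however, shared 60.6% of the 50-base words of its longest coding transcript with transcripts of 21 other genes, 18 of them annotated as pseudogenes, while Eef1a2 shared none. Reads with more than 1 alignment were kept in a row of their own. Per kb of the longest coding transcript the log2 ratio was 3.28, and if the shared words of that transcript yielded no counts, it would be 4.63.

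Subunits of the factor that reloads eEF1A with GTP stood at unequal levels. Eef1g, which encodes the gamma subunit, was at 71.1 ± 13.0 CPM per kb (SD, n = 4), and Eef1b2, for an exchange subunit, at 35.8 ± 18.8. Eef1d, for the other exchange subunit, was at 4.0 ± 0.83 CPM per kb and lay below both in 4 of 4 libraries, 15.9-fold below Eef1g (log2 ratio of Eef1g to Eef1d 3.99 ± 0.53) and 7.40-fold below Eef1b2 (2.89 ± 0.49). The union of annotated exons of Eef1d, 6488 bases, is longer than its longest coding transcript of 2842 bases. Per kb of the longest coding transcript these log2 ratios were 3.38 and 2.17. Eef1g shared 64.3% of its words with 5 pseudogenes, and Eef1b2 overlaps Ndufs1 in the annotation. Eef1e1, which encodes a component of the multi-tRNA synthetase complex named after this factor, was at 14.7, 10.3, 18 and 14.8 CPM.

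Eef2k encodes the kinase that inactivates eEF2. It was at 18.3, 24.4, 14.1 and 13.8 CPM, which is 69.2-fold below its substrate gene per kb (log2 ratio 6.11 ± 0.76, above 0 in 4 of 4 libraries). Eef2kmt, for a methyltransferase of eEF2, had 140, 0, 17 and 54 counts in replicates 1 to 4. The factor eIF5A relieves stalled ribosomes and carries the amino acid hypusine. Its general gene Eif5a (ENSMUSG00000078812.10, chromosome 11, 69916714 to 69921958, minus strand) was at 68.9, 59.7, 178 and 225 CPM, and its paralog Eif5a2 (chromosome 3, 28781276 to 28798846, plus strand) at 186, 191, 134 and 183 CPM. The order of these paralogs per kb differed between libraries. The log2 ratio of Eif5a to Eif5a2 was -0.34 and -0.59 in replicates 1 and 2, and 1.48 and 1.37 in replicates 3 and 4, so the mean of 0.48 was within its spread (SD 1.10). Without the division by length the mean turned to -0.60.

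Among the Eif4a, Eif4e and Eif4g genes, the helicase gene Eif4a2 and the scaffold genes Eif4g2 and Eif4g3 stood highest on average. Eif4a2 (ENSMUSG00000022884.15, chromosome 16, 23107444 to 23114136, plus strand) was at 471, 259, 370 and 285 CPM. Its paralog Eif4a1 (ENSMUSG00000059796.16, chromosome 11, 69666936 to 69672423, minus strand) was at 61.9, 51.9, 91.9 and 90 CPM. Per kb Eif4a2 exceeded Eif4a1 3.73-fold in 4 of 4 libraries (log2 ratio of Eif4a1 to Eif4a2 -1.90 ± 0.53, SD), and made up 77.7%, 67.4%, 67.3% and 61.5% of the RNA of the 3 Eif4a genes. Eif4a1 shared 65.3% of its words with 8 pseudogenes and Eif4a2, which overlaps Rfc4 in the annotation, 12.7% with other genes. Per kb of the longest coding transcript the log2 ratio of Eif4a1 to Eif4a2 was -1.61. When only the remaining words of that transcript counted as length, it was -0.27, and the order of Eif4a1 and Eif4a2 was then not the same in every library. Eif4a3, whose product belongs to the exon junction complex rather than to eIF4F, was at 23.5, 24.4, 26.5 and 26.9 CPM, the second smallest spread among the 45 members of at least 20 CPM on average, and was 5.13-fold below Eif4a2 per kb.

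Of the scaffold genes, Eif4g2 encodes a shorter relative, also called DAP5, that lacks the site for the cap-binding protein. Eif4g2 (chromosome 7, 111067750 to 111083030, minus strand) was at 1565, 1517, 1090 and 1033 CPM, with replicates 3 and 4 below replicates 1 and 2. Eif4g3 was at 580, 1062, 409 and 587 CPM, highest in replicate 2, and Eif4g1 at 137, 202, 183 and 284 CPM. Per kb Eif4g2 exceeded Eif4g1 4.65-fold (log2 2.22 ± 0.68) and Eif4g3 exceeded it 2.08-fold (log2 ratio of Eif4g1 to Eif4g3 -1.06 ± 0.66), each in 4 of 4 libraries, but the latter mean was under 2 SD. The canonical scaffold gene Eif4g1 made up 8.31%, 10.1%, 14.8% and 20.1% of the RNA of the 3 scaffold genes per kb, a higher share in replicates 3 and 4 than in replicates 1 and 2. Eif4b and Eif4h, whose products stimulate the helicase, were at 75.5 ± 14.7 and 32.4 ± 9.43 CPM per kb, and Eif4b was higher in 4 of 4 libraries (log2 1.23 ± 0.25). Per kb of the longest coding transcript that log2 ratio was 0.43.

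The cap-binding genes were lower and without a fixed order. Eif4e was at 146, 62.4, 68.5 and 45.1 CPM, Eif4e2 at 43.2, 44.2, 28.4 and 66.4, and Eif4e3 at 32.3, 53, 11.9 and 19.9. The log2 ratio to Eif4e was -1.0 ± 0.96 for Eif4e2, below 0 in 3 of 4 libraries, and -0.25 ± 0.99 for Eif4e3, below 0 in 2 of 4. The sign for Eif4e3 turned without replicate 3, to 0.0563. Eif4e1b, known from oocytes, was at 0 counts in all 4 libraries, which allows up to 0.142 to 0.236 CPM (3 counts, covering counting error only). Among the genes of the eIF4E-binding repressors, which release eIF4E when mTOR phosphorylates them, Eif4ebp2, known as the main form in brain, made up 95% to 99.7% of the RNA of the 3 genes per kb. Eif4ebp2 was at 61.9, 189, 195 and 345 CPM, lowest in replicate 1 and highest in replicate 4. Eif4ebp1 had 26, 12, 3 and 19 counts and Eif4ebp3 had 0, 0, 0 and 9. Both log2 ratios to Eif4ebp2, -5.08 ± 1.15 and -5.55 ± 0.75, were below 0 in 4 of 4 libraries, and their size depends on the pseudocount: with 0.1 and 2 CPM per kb they were -6.02 and -3.72 for Eif4ebp1, and -7.40 and -3.85 for Eif4ebp3. Eif4enif1, for the transporter that brings eIF4E to the nucleus, was at 53.7 to 101 CPM.

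**Figure D2:**
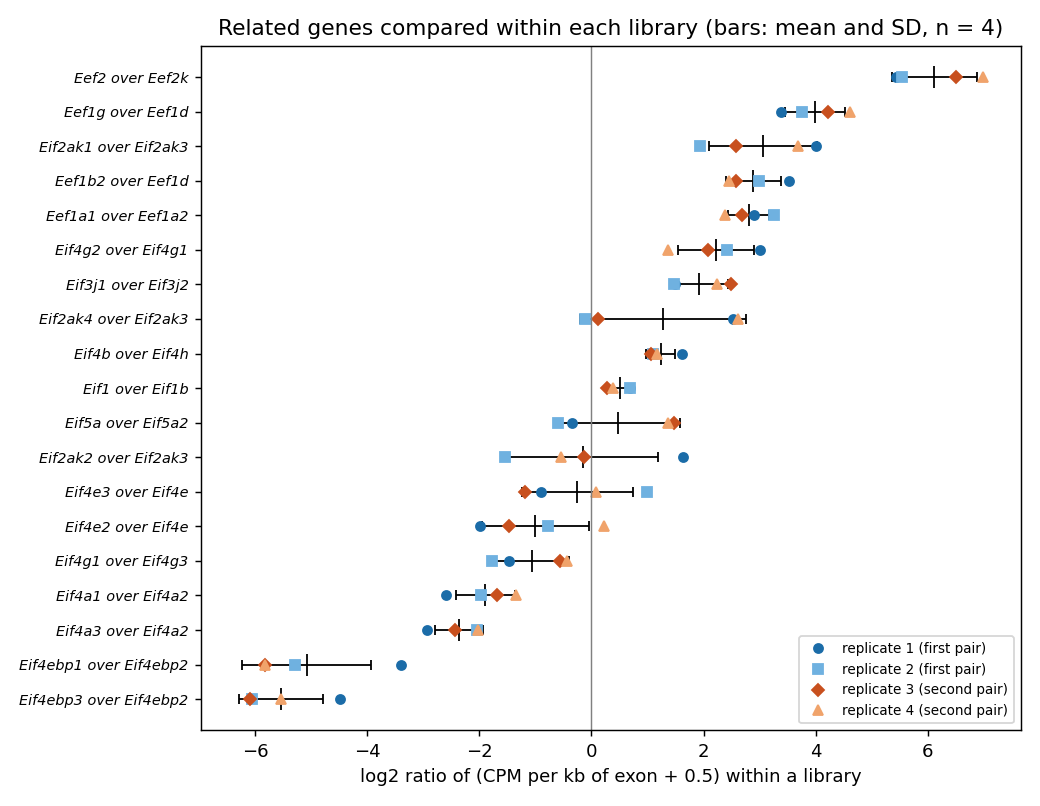
Log2 ratio of related genes within each library, from CPM per kb of exon plus 0.5, for the 19 gene pairs compared; points are libraries, and bars give the mean and SD. Of the 19 pairs, 14 lie on the same side of 0 in all 4 libraries, and the points of Eif5a over Eif5a2 fall on both sides.

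In all, 14 of the 19 gene pairs went in the same direction in all 4 libraries, and 13 of these had a mean over 2 SD. The two-sided exact sign-flip permutation test has 16 sign patterns with 4 libraries, so the smallest p is 0.125, which those 14 pairs reached (0.170 after Benjamini-Hochberg adjustment over the 19 pairs). The test cannot pass 0.05, and the pairs are described by their direction and spread. Eif1, for the factor that guards the choice of start codon, exceeded its paralog Eif1b by a log2 ratio of 0.51 ± 0.21, in 4 of 4 libraries. Eif1 also had the smallest spread of the 45 members of at least 20 CPM, at 158, 150, 153 and 165 CPM. This and the other rankings by spread use totals that include Rn45s, which took 1.61% to 24.2% of the gene counts. The ranking without Rn45s was not tested. It shared 31.6% of the words of its longest coding transcript with 18 other genes. Per kb of that transcript the log2 ratio of Eif1 to Eif1b was 1.05, and with shared words left out of the length it was 1.57. Eif3j1 and Eif3j2 have coding sequences that are identical over all 786 aligned bases, so the counts of both are uncertain. Their log2 ratio of 1.92 ± 0.52 was 2.02 per kb of the longest coding transcript, and 0.37 when shared words of that transcript were left out.

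The subunit genes of eIF3, a complex whose proteins assemble in fixed proportions, spanned a wide range. All 14 rows of this subgroup were measured, and 13 reached 1 CPM in all 4 libraries. Eif3a, for the largest scaffold subunit, was at 76.1 ± 43.8 CPM per kb, followed by Eif3h at 56.0 ± 20.4 and Eif3c at 51.6 ± 7.81. The lowest were Eif3j2 at 0.481 ± 0.157 and Eif3j1 at 3.25 ± 0.834 CPM per kb. Next came Eif3d, at 3.51 ± 1.26, for a subunit that can bind the cap itself, and Eif3e at 6.44 ± 3.35. The exon unions of Eif3d and Eif3e, 4968 and 6719 bases, exceed their longest coding transcripts of 1899 and 1506 bases. Per kb of the longest coding transcript Eif3e stood at 28.7, Eif3d at 9.17 and Eif3a at 130 CPM, and Eif3a was again the highest of the subunits on average. This order did not hold in every library. Per kb of exon Eif3a was at 123 and 103 CPM in replicates 1 and 2, above Eif3h at 36.9 and 40.1. In replicates 3 and 4 Eif3a was at 33.5 and 44.5 CPM, below Eif3h at 70.3 and 76.7. Eif3i, for a small subunit of beta-propeller type, was among the steadiest members at 78.5, 73.9, 102 and 86.6 CPM. Eif3b, for another scaffold subunit, had the largest spread of the members of at least 20 CPM, with 4.87, 18.6, 73.9 and 48.8 CPM.

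**Figure D3:**
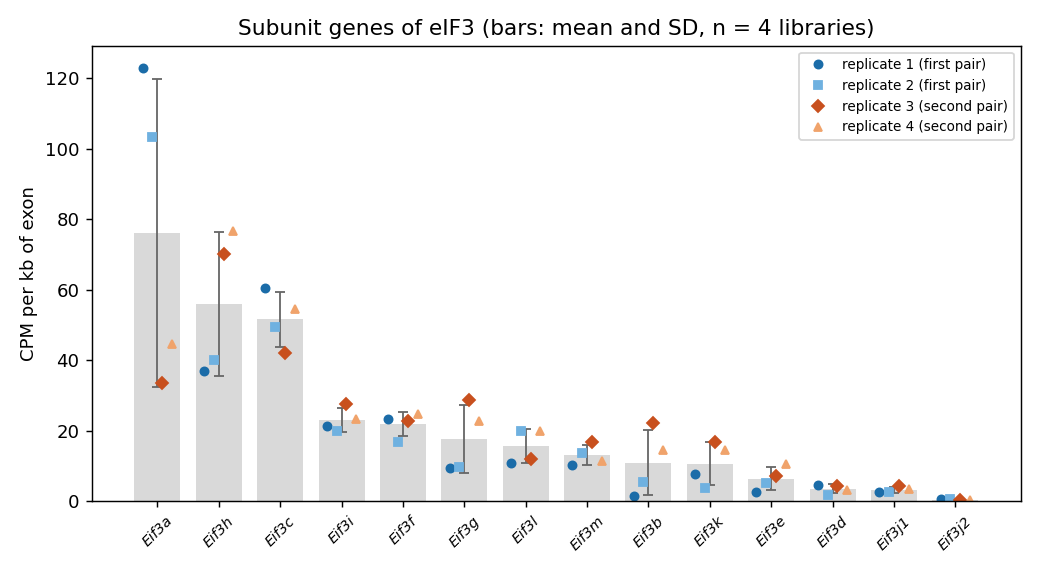
CPM per kb of exon of the 14 eIF3 subunit genes; bars start at 0 and show the mean with SD, and points are the 4 libraries. Eif3a is high in replicates 1 and 2 and low in replicates 3 and 4, while Eif3h, Eif3g, Eif3b, Eif3k and Eif3e are higher in replicates 3 and 4.

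The genes of eIF2, of its exchange factor eIF2B and of the kinases that phosphorylate eIF2 stood from place 30 of 61 downwards per kb of exon. Per kb of the longest coding transcript Eif2s2 was in place 24 and Eif2a in place 27, and the others from place 36 downwards. Eif2s1 and Eif2s2, for the alpha and beta subunits of eIF2, were at 11.3 ± 6.52 and 12.3 ± 4.63 CPM per kb (SD, n = 4), and the gamma subunit gene was not included. Of the 5 eIF2B subunit genes, Eif2b2 was highest at 11.3 ± 7.86 CPM per kb and Eif2b3 lowest at 1.21 ± 0.87. Eif2b2 had the third largest spread among the 45 members of at least 20 CPM, at 13.4, 5.27, 28 and 38.5 CPM. Eif2a and Eif2d, for alternative factors that bring initiator tRNA without eIF2, were at 11.8 ± 4.39 and 1.45 ± 0.53 CPM per kb. Among the remaining initiation genes, Eif5, for the protein that makes eIF2 hydrolyse its GTP, was at 478, 499, 332 and 309 CPM. Eif6, whose product keeps the large ribosomal subunit from joining too early, was at 25.2, 74.6, 16.7 and 31 CPM, highest in replicate 2.

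The 4 kinases of eIF2 answer to different stresses, and their genes had a clear leader. Eif2ak1, for the heme-regulated kinase HRI, was at 60.1, 84.5, 67.5 and 72.2 CPM and made up 66.2% to 71.6% of the RNA of the 4 genes per kb in each library. Eif2ak4, for the amino acid sensor GCN2, was at 25.6, 24, 13 and 43.1 CPM. Eif2ak3, for the endoplasmic reticulum kinase PERK, was at 1.14, 21.2, 9.50 and 3.20 CPM, and Eif2ak2, for the kinase PKR activated by double-stranded RNA, at 8.42, 4.5, 7.15 and 1.04. Eif2ak1 exceeded Eif2ak3 8.30-fold per kb in 4 of 4 libraries (log2 3.05 ± 0.96). The log2 ratios of Eif2ak4 (1.28 ± 1.48) and Eif2ak2 (-0.15 ± 1.33) to Eif2ak3 were within their spread, and that of Eif2ak2 turned to 0.32 without replicate 2. Eif2ak1 overlaps Aimp2 and Ankrd61 in the annotation, and the strand setting of the counting is not given.

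The descriptions number replicates 1 and 2 as libraries 1666 and 1667 and replicates 3 and 4 as 2469 and 2470, and these adjacent numbers, called the first and the second pair here, are the only technical difference given in the labels. The count tables differ with the pair as well. Within a pair the gene rows are the same, while 796 rows stand only in the tables of the first pair and 922 only in those of the second, so the gene lists used for counting were not the same, and what this does to the changes below was not tested. All are replicates of the same group, with 2 libraries in each pair. In the second pair Eif5b and Eif3a fell, and no member rose past the threshold. Eif5b (ENSMUSG00000026083.12, chromosome 1, 37998010 to 38055579, plus strand), for the GTPase that joins the ribosomal subunits, was at 669 and 587 CPM in the first pair and at 143 and 142 CPM in the second, a log2 change of -2.12 (SE 0.32, edgeR quasi-likelihood adjusted p = 0.0127). Eif3a (ENSMUSG00000024991.8, chromosome 19, 60761117 to 60790658, minus strand) was at 1074 and 902 CPM against 292 and 389, a log2 change of -1.53 (SE 0.30, edgeR adjusted p = 0.0338). In both genes the libraries of the pairs did not overlap. Eif3a shared no 50-base word with another gene, while Eif5b overlaps Rev1 in the annotation and shared 18.2% of its words with 1 other gene. The calls of both were kept under each alternative that used all 4 libraries. Leaving out a replicate leaves 1 library in a pair, and only log2 changes are given for those fits. They were -2.24 to -2.02 for Eif5b and -1.63 to -1.43 for Eif3a. Beside these changes, the first pair held 25057 and 22117 CPM of the 7 neuronal markers and the second 10849 and 11210, and Rn45s took more of the second pair; their part in the result was not tested. The 6 cerebellar granule cell markers summed to 835, 1457, 560 and 568 CPM in replicates 1 to 4, and the 5 endothelial markers to 136, 191, 70.7 and 37.8 CPM, with 4 of 5 markers at 1 CPM throughout and Cldn5 at 0 in a library. Of 6 microglial markers 1 reached 1 CPM throughout, C1qa and Aif1 were at 0 in a library, and the sum was 19.5, 3.66, 7.62 and 43.2 CPM in replicates 1 to 4. The sums of astrocyte and oligodendrocyte markers overlapped between the pairs.

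The 2 calls among 59 tested members are 3.39%, beside 1.27% of all 13905 genes tested. By direction, 0 of 59 members rose, beside 0.712% of all genes, and 2 fell, beside 0.554%. At an unadjusted p under 0.05 there were 14 members (23.7%), beside 16.8% of all genes. By DESeq2, 2 members were called higher, beside 5.06% of all genes, and 3 lower, beside 4.55%. Together these are 8.47% of the 59 members with an adjusted p, near the 9.6% of all 14433 genes with one. Eif5a did not pass by a small margin, with 68.9 and 59.7 CPM in replicates 1 and 2, 178 and 225 in replicates 3 and 4, and a log2 change of 1.66 (SE 0.37, edgeR adjusted p = 0.0518). It was called higher without the 20 most abundant rows (edgeR adjusted p = 0.0438), under both other filters and by DESeq2 (adjusted p = 0.00108). More genes were called in these settings: 203 of 13978 without the 20 most abundant rows, 875 of 18346 without a filter and 482 of 11179 with at least 10 counts in every library. When a replicate was left out, the log2 change of Eif5a was 1.59 to 1.73. Eif3b had the largest log2 change, 2.42 (SE 0.72, edgeR adjusted p = 0.11), and was called without a filter and by DESeq2. Its log2 change was 1.73 to 3.73 when a replicate was left out. Eif4ebp2 had a log2 change of 1.08 (SE 0.48, edgeR adjusted p = 0.278) and was not called in any fit of all 4 libraries. Its log2 change was 0.47 without replicate 1 and 2.14 without replicate 2. Eif2s1, with a log2 change of -1.47 (edgeR adjusted p = 0.148), was called by DESeq2 alone (adjusted p = 0.0312).

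**Figure D4:**
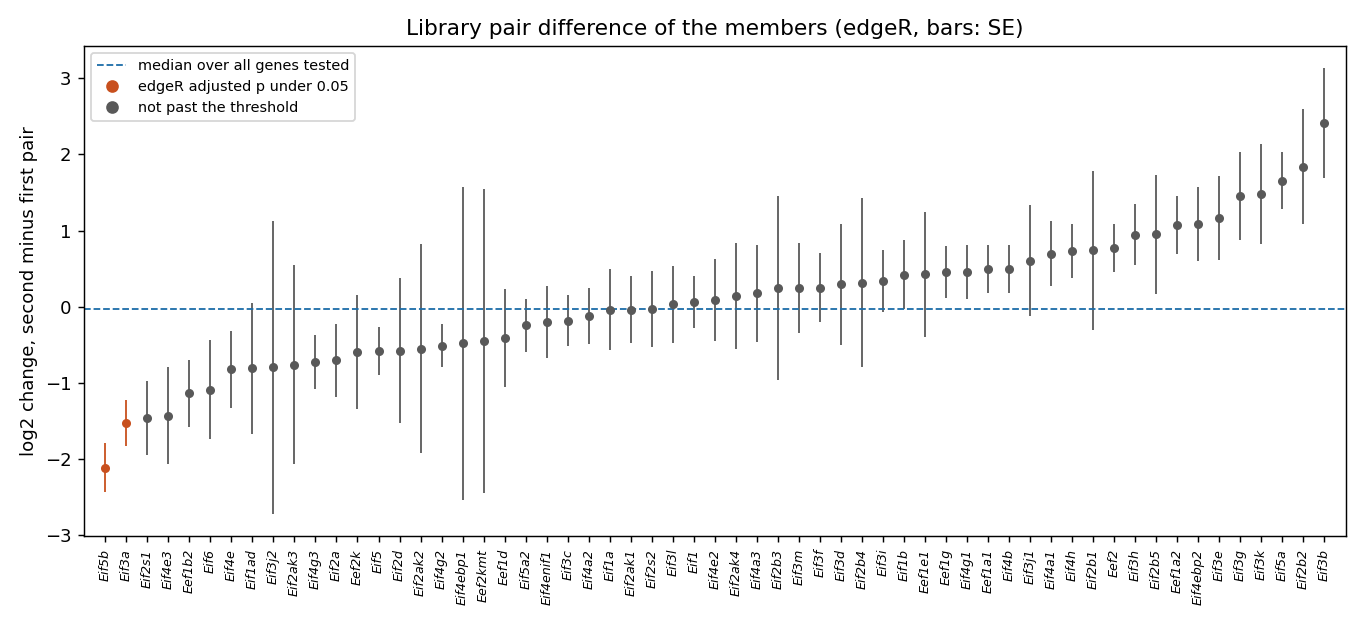
Log2 change of the 59 tested members between the library pairs (second minus first), with SE from edgeR, in order of size. Eif5b and Eif3a, at the left, pass the threshold of 0.05, and the dashed line is the median over all genes tested, -0.03.

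The list as a whole did not move in a common direction. Its median log2 change was 0.09, beside -0.03 over all genes tested, and without replicate 3 the median was -0.00413. Above 0 were 32 members and below 0 were 27, and of all genes tested 49.0% were above 0. The CPM of the pairs did not overlap for 33 of 59 members (55.9%), beside 47.5% of all genes tested. In 33.9% of the members the second pair lay above the first (23.7% of all genes), and in 13 members below (23.8% of all genes). Within eIF3, 11 of 14 genes were above 0 and Eif3a, Eif3c and Eif3j2 below. Its median was 0.31, and 0.23 to 0.59 when a replicate was left out, lowest without replicate 3 and highest without replicate 4. In edgeR 1 of the 14 genes passed (7.14%, beside 1.27% of all genes) and 5 had an unadjusted p under 0.05 (35.7%, beside 16.8%). The latter number was lower when any replicate was left out, which leaves 1 library in a pair. The number of genes tested changed in those fits as well, so they are not set beside all genes here. DESeq2 called Eif3a and Eif3b (14.3%, beside 9.6%). The changes of subunits of the same complex thus ran from -1.53 for Eif3a to 2.42 for Eif3b. Of the 7 genes of start selection and subunit joining, 5 were below 0, with a median of -0.59.

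The 9 TOP messages were Eef1a1, Eef1b2, Eef1d, Eef1g, Eef2, Eif3e, Eif3f, Eif3h and Eif4b. Their summed level was 1787, 2183, 2649 and 2995 CPM in replicates 1 to 4, with both libraries of the second pair above the first. Of these 9 genes 7 had a log2 change above 0 (beside 49.0% of all genes tested), with a median of 0.49, and 2, Eef1b2 and Eef1d, were below 0. None passed the edgeR test or DESeq2, and 3 had an unadjusted p under 0.05 in edgeR (33.3%, beside 16.8% of all genes). That number was lower without replicate 1, 3 or 4, fits that leave 1 library in a pair, and unchanged without replicate 2. Of the 3, Eef2 had a log2 change of 0.77 (edgeR adjusted p = 0.231), Eif3h of 0.95 (0.247) and Eef1b2 of -1.14 (0.209). The sequences above show a run of pyrimidines at the annotated start of Eef1a1 and Eif3f and none in the windows of Eef2 and Eef1b2. The log2 changes of Eef2 and Eef1b2 differ in sign. Since the start used in these cells was not measured, the windows cannot show which of these messages begin with such a run. The paralogs Eef1a1 and Eef1a2 were both above 0, at 0.49 (adjusted p = 0.477) and 1.08 (adjusted p = 0.172, edgeR).

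Most members with long transcripts were lower in the second pair, and most with short ones were not. Across the 59 tested members, Spearman's rho between the length of the longest coding transcript and the log2 change was -0.41, beside -0.12 across 12404 genes tested. These are correlations across genes of the same 4 libraries, and genes are not independent replicates. Of the 15 members with a longest coding transcript of at least 4000 bases, a limit chosen after the values were seen, 11 were below 0, with a median log2 change of -0.56. Of the 44 shorter members 16 were below 0, with a median of 0.25. Among all genes tested 56.8% of the longer and 47.0% of the shorter ones were below 0, with medians of -0.15 and 0.10. Eif5b has a longest coding transcript of 7797 bases and Eif3a of 5125, while Eif4ebp2, at 5784 bases, went the other way.

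**Figure D5:**
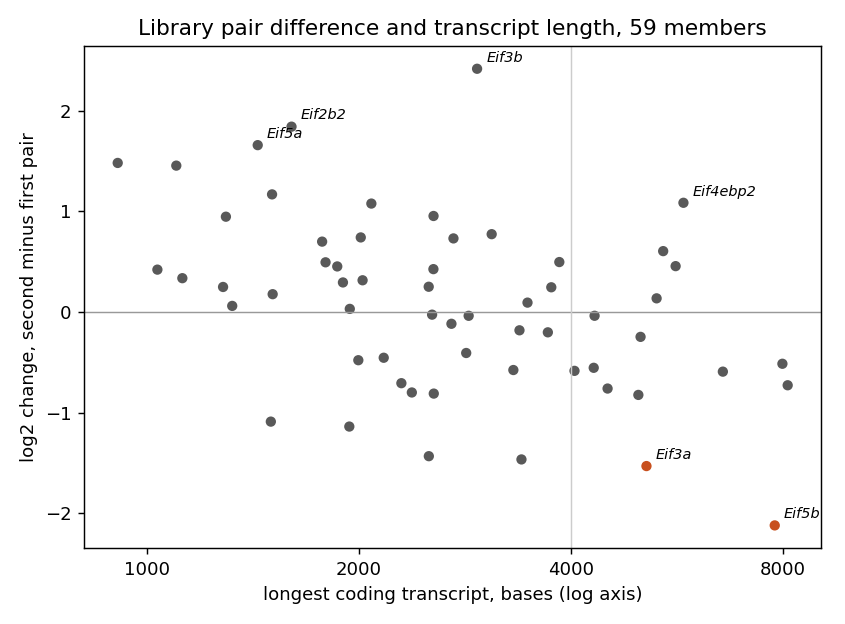
Length of the longest coding transcript in bases (log axis) against the log2 change between the library pairs, for the 59 tested members. Points past the edgeR threshold, Eif5b and Eif3a, are in orange, and the vertical line marks 4000 bases.

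Other genes of the translation machinery were examined as a list of 40, of which 39 had a row and 37 reached 1 CPM in all 4 libraries. Impact, whose product restrains the kinase GCN2, was at 707, 526, 772 and 648 CPM, far above the gene of that kinase (129 against 3.54 CPM per kb on average). Cyfip2, for a partner of the fragile X protein, was at 1182, 1556, 1072 and 1368 CPM, and Fmr1, for that protein itself, at 24.6 to 41.4. Pabpc1, for the poly(A)-binding protein that joins eIF4G, was at 254 to 432 CPM, and Atf4, the transcription factor translated when eIF2 is phosphorylated, at 88.2 to 114. These 5 genes were picked by their known roles beside members, after their values were seen. Between the library pairs 0 of the 39 passed the edgeR test, beside 1.27% of all genes. Their median log2 change was -0.08, and 0.05 and 0.03 without replicates 1 and 2. An unadjusted p under 0.05 in edgeR was seen for 5 (12.8%, beside 16.8% of all genes). That number was lower when any replicate was left out, which leaves 1 library in a pair. DESeq2 called Gspt2 and Dph3 lower and Dohh higher (7.69%, beside 9.6% of all genes). Dohh, for the enzyme that completes the hypusine of eIF5A, was at 4.21, 2.64, 29.1 and 15.5 CPM in replicates 1 to 4, and was named for its role beside Eif5a.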

How the data were processed

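The deposited values are read counts for each gene symbol and were not normalized. The submitters' processing notes name STAR 2.0.0e, HTSeq and mm10; the annotation, strand setting and counting options are not given in the sources used here. HTSeq summary rows and a row named unknown (0 counts) were left out. Reads outside features were 24.0% to 30.1% of a library's total, ambiguous reads 1.25% to 2.07%, and reads with more than 1 alignment 28.6% to 37.2%. The description of replicate 4 repeats the replicate label of replicate 3; the title was followed, and their counts differed by a chi-square of 215 per degree of freedom.

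CPM used all gene rows of a table. Exon lengths came from GENCODE M21 (GRCm38, the assembly of mm10). Log2 ratios used a pseudocount of 0.5 CPM per kb. Library pairs were compared with the quasi-likelihood test of edgeR 4.0.16 over 13905 genes kept by filterByExpr, after TMM scaling, at a Benjamini-Hochberg adjusted p under 0.05, with DESeq2 1.42.0 as an alternative; SE is the log2 change over the root of F. The edgeR test and the sign-flip test were tested on simulated data. The counts simulated for edgeR had the same dispersion for every gene, so they do not show how the test behaves on these libraries. Shared sequence was measured as 50-base words found in GENCODE transcripts of other genes, and coding sequences were aligned with Biopython 1.88. Named were the members of the 19 pairs, those past the threshold, the 10 highest per kb, the 3 with the largest and the 3 with the smallest spread of log2 CPM among members of at least 20 CPM, those at 0 counts throughout, and the ends of subgroup ranges; others were named for their roles. The members and lists were chosen with earlier results of these data known.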

Additional observations from a re-analysis of the deposited data

Results flagged for a closer look

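In 2 of the 61 members 1 library stood apart from the other 3 by Dixon's criterion for 4 samples, which chance meets in about 1 of 20 groups. Eif5a2 was at 134 CPM in replicate 3, beside 183 to 191 CPM in the others. Rn45s took 24.2% of the gene counts of replicate 3, which lowers the CPM of every other gene there. Whether Eif5a2 would stand apart with Rn45s left out of the totals was not tested. Eif4ebp3 was at 0.588 CPM (9 counts) in replicate 4 and at 0 counts in the others. None of the 19 ratios had such a library.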

How the results depend on the processing

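No paired analysis was possible because the series has 1 group. The alternative that used the genome to find unique exon was not run, since no genome was used here; the transcript words that replaced it, and levels with TMM factors, were chosen after seeing the data. The number of gene pairs in the same direction in all libraries, 14, was 13 to 16 under the alternatives. The log2 ratio of Eef1a1 to Eef1a2 was 3.28 per kb of the longest coding transcript and 4.63 per kb of unshared words. Of the other ratios, Eif5a to Eif5a2 reversed to -0.60 without length, Eif4e3 to Eif4e to 0.0563 without replicate 3 (-0.667 to 0.0563 without a replicate), and Eif2ak2 to Eif2ak3 to 0.320 without replicate 2 (-0.741 to 0.320); the cause was not tested. The 176 genes called between the pairs became 875 without a filter, 482 with at least 10 counts in every library, 389 to 699 without a replicate and 1386 by DESeq2. The number of genes tested changed with the setting. The 2 of 59 members called, beside 176 of 13905 genes, became 4 of 60 without a filter, beside 875 of 18346. With at least 10 counts in every library they became 3 of 57, beside 482 of 11179 genes. By DESeq2 they became 5 of 59, beside 1386 of 14433 genes. Fits without a replicate leave 1 library in a pair, so the calls of members are not compared there. The median log2 change of the members, 0.09, was 0.17 with at least 10 counts in every library and -0.00413 to 0.23 without a replicate, reversed without replicate 3. The summed level of the members, 8741 CPM on average, was 9676 without Rn45s in the totals. A library of 12731825 counts gives 1 count a worth of 0.0785 CPM, so genes such as Eif4ebp1 and Eif3j2 rest on few counts.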

Other observations

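Eef1akmt1, for a lysine methyltransferase of eEF1A, had a row only in the tables of replicates 3 and 4, with 145 and 34 counts, and entered no comparison.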
